A study of Rattus norvegicus with 13 samples.

Results

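Endothelial identity markers are genes whose transcripts mark the cells that line blood vessels. Here 10 such genes were followed in the left ventricle of the pregnant rat: Pecam1, Cdh5, Vwf, Eng, Emcn, Esam, Cldn5, Icam2, Plvap and Egfl7. The members were the array probe sets annotated with 1 gene symbol that is one of these 10. This gave 11 probe sets for 9 genes, of 31042 probe sets tested and 14217 genes with such a probe set, and Icam2 and Egfl7 had a brighter and a dimmer probe set each. No probe set carried Cdh5 (VE-cadherin) as its single symbol, and Cdh5 was not analysed here.

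The series held 13 arrays of left ventricular RNA from pregnant female Sprague Dawley rats, 1 array a sample. There were 4 L-NAME-fed samples, 4 methionine-fed (Met-fed) samples and 5 controls. L-NAME, an inhibitor of nitric oxide synthase, was given at 1 g/L and methionine at 9 g/L, both in the drinking water from day 1 to day 20 of gestation, and the hearts were collected on day 20 or 21. Methionine was given to raise plasma homocysteine (hyperhomocysteinemia, HHcy) and L-NAME to limit nitric oxide. The rats' age was not given, and the labels number the samples as replicates without stating that each number is a separate animal, so the p-values measure the spread between these samples. The study's methods describe rats that had been pregnant several times, with methionine water from the start of the first pregnancy until the hearts were taken. That is longer than the day 1 to day 20 given above. The methods do not describe the L-NAME feeding.

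Endothelial cells form the inner wall of every vessel and of the dense capillary bed between cardiomyocytes. They are held together by claudins and by adhesion molecules at their borders, carry receptors and sialomucins on the luminal surface, and store von Willebrand factor for release into the blood. Their markers are often read together as a measure of endothelial content, which is the question asked of them here, and in RNA from whole ventricle fewer endothelial cells and less RNA per cell cannot be told apart.

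The values were MAS5 signals, a linear brightness per probe set scaled to a common level on each array, and were compared as log2. The L-NAME-fed arrays stood apart on measures that do not depend on the markers. The median signal over all probe sets was 34.2 to 36.9 in L-NAME-fed, 25.8 to 29.2 in Met-fed and 25.7 to 27.2 in control samples. The 3′ minus 5′ difference of the beta-actin control probe sets was 2.32 to 2.70 log2 in L-NAME-fed, 3.32 to 3.71 in Met-fed and 3.31 to 3.68 in control samples, and the mean log2 signal of the spike-in controls was 9.80 to 9.97, 10.02 to 10.27 and 10.16 to 10.41 in the same groups. These array measures and L-NAME feeding cannot be told apart. All 11 marker probe sets were brighter than every bacterial control probe set on all 13 arrays. This is a low bar, since the brightest bacterial control read 1.28 to 2.31 log2 per array, against 4.87 for the median probe set. The share of all probe sets above it was not counted.

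The sequences before the start site are shown for the 4 members for which RefSeq gave 1 start site: Plvap and Emcn, 2 surface proteins with lower mean signals in L-NAME-fed than in Met-fed or control hearts, and Eng and Cldn5, the pair with the highest r, which did not pass after adjustment. Each run is the 250 bases before the RefSeq start on build GRCr8, read 5′ to 3′ on the gene's strand, and capitals mark GGAA, the core bound by ETS factors, on either strand (TTCC on the reverse).
Emcn, chr2:228564289-228564538, plus strand: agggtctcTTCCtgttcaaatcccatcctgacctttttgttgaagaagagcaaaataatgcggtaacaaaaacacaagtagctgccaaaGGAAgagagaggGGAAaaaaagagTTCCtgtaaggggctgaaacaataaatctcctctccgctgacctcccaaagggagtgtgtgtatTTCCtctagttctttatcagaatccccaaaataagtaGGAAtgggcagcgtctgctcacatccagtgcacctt
Plvap, chr16:18231280-18231529, minus strand: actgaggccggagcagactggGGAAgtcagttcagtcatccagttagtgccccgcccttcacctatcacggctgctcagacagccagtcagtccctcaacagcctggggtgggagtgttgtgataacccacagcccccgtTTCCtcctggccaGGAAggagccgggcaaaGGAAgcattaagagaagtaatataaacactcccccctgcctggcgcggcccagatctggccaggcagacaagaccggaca
Eng, chr3:36332029-36332278, plus strand: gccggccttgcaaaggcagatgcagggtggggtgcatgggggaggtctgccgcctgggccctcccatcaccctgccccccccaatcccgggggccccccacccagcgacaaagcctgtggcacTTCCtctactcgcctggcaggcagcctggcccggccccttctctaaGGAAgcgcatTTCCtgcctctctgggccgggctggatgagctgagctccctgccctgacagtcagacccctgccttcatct
Cldn5, chr11:95718599-95718848, minus strand: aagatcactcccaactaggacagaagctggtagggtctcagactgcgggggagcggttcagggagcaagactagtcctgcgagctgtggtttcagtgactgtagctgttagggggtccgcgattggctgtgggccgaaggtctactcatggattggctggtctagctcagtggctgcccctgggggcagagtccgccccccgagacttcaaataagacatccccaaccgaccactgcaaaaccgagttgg
GGAA occurred 6 times before Emcn, 4 times before Plvap, 3 times before Eng and 0 times before Cldn5. Of the 33469 RefSeq windows of this length, 93.2% held it at least once, 55.5% at least 3 times, 34.7% at least 4 times and 9.27% at least 6 times. The longer form CAGGAAG, in which GGAA is contained, was present once each before Emcn and Plvap, neither of the other 2 windows held it, and 10.2% of all windows did. The GC content was 44.4% before Emcn, 59.2% before Plvap, 68.0% before Eng and 58.4% before Cldn5, with a median of 51.2% over all windows. These are matches of letters, and no binding was measured. RefSeq start sites were matched for 5 of the 10 members, the fifth being Egfl7 with 2 start sites, and Pecam1, Esam, Icam2, Vwf and Cdh5 were not matched.

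Endothelial markers changed in both directions with L-NAME feeding. Esam rose 2.70-fold relative to controls, while Plvap, Vwf and Pecam1 fell to 0.344, 0.494 and 0.663 of control, and Icam2, Eng, Egfl7 and Emcn by their brighter probe sets did not pass the test. Cldn5 passed at 1.48-fold, a call that was lost when any 1 of several arrays was left out. By limma with Benjamini-Hochberg adjustment over all probe sets (adjusted p below 0.05), 5 of 9 genes passed, 2 higher and 3 lower, and 6 of 11 probe sets, 3 higher and 3 lower. Of all probe sets 45.7% passed in this comparison, 28.7% higher and 17.0% lower, and 64.6% of those of at least median signal, so the markers' share was near the background. At an unadjusted p below 0.05 it was 7 of 11 against 51.7%. In 2 probe sets every L-NAME-fed sample was above every control (25.8% of all probe sets) and in 3 every one was below (14.5%), 5 of 11 against 40.3% in all. The median log2 change of the 9 genes was -0.11, against 0.22 over all probe sets. The balance of directions depended on the scaling: 1 gene was higher and 3 lower with quantile normalization (6823 and 6796 of the 31042 probe sets), 1 higher and 6 lower with each array centred on its median (4952 and 9232), and 1 higher and 2 lower with the spike-in mean of each array as a covariate (2373 and 1760). Esam was the higher gene in all 3, and Vwf and Plvap were among the lower ones.

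**Figure D1:**
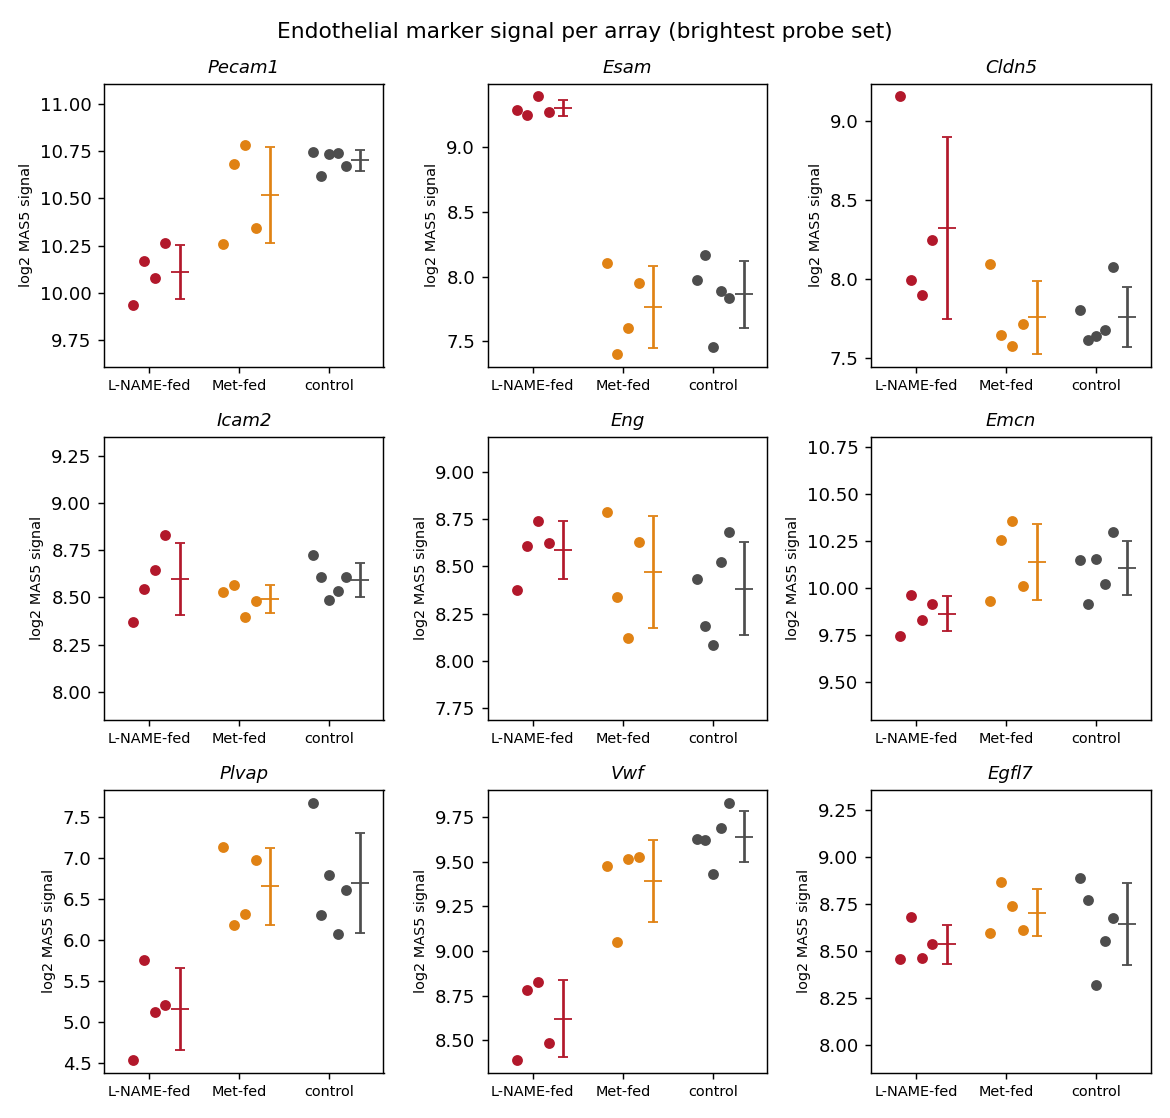
MAS5 signal on a log2 axis of 9 endothelial markers (brightest probe set of each), by sample, in L-NAME-fed (n = 4), Met-fed (n = 4) and control (n = 5) left ventricles; points are arrays, and the mark beside them is the group mean with its SD. Esam in the L-NAME-fed arrays lies above, and Vwf and Plvap lie below, every array of the other groups.

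Of the adhesion molecules, Pecam1 (CD31) sits at the borders between endothelial cells. Its signal was 977, 1149, 1081 and 1231 in the 4 L-NAME-fed samples, 1226, 1644, 1764 and 1298 in the 4 Met-fed samples, and 1718, 1573, 1708, 1710 and 1632 in the 5 controls. All 4 L-NAME-fed samples were below all controls, and the highest L-NAME-fed sample overlapped the lowest Met-fed one. The log2 change was -0.59 ± 0.10 in L-NAME-fed relative to control hearts (SE, limma adjusted p = 0.000145), and the exact permutation p was 0.00794, the smallest that 4 samples against 5 can give. With the spike-in covariate it was -0.21 (limma adjusted p = 0.50).

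Esam, an immunoglobulin-family adhesion molecule of endothelial tight junctions, moved the other way. Its signal was 624, 609, 671 and 618 in L-NAME-fed samples, 275, 169, 194 and 247 in Met-fed samples, and 252, 287, 176, 237 and 228 in controls. The L-NAME-fed samples lay within a narrow band above all others, and the Met-fed and control samples overlapped. The log2 change between L-NAME-fed and control hearts was 1.44 ± 0.15 (SE, limma adjusted p = 8.24e-07, exact permutation p = 0.00794).

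Cldn5, the main claudin of endothelial tight junctions, had a rise that rested mostly on 1 array. The signal was 570.5, 255, 239 and 305 in L-NAME-fed samples, 274, 201, 191 and 210.1 in Met-fed samples, and 224, 196, 199, 205 and 269.8 in controls. Replicate 1 of the L-NAME-fed samples was far above the rest. Replicate 4 at 305 was also above every Met-fed and control sample, and replicates 2 and 3 lay within the control range. The log2 change was 0.56 ± 0.20 (SE, limma adjusted p = 0.0331, exact permutation p = 0.0317), and without that array it was 0.28 with limma adjusted p = 0.125. The call was also lost without L-NAME-fed replicate 4 (limma adjusted p = 0.0513) or control replicate 2, 3 or 4 (0.0653, 0.0658 and 0.0612) and with quantile normalization (log2 change 0.45), and the sign turned with the spike-in covariate (-0.04).

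Icam2, a constitutive endothelial ligand of leukocyte integrins, differed by less than the spread between samples. Its brighter probe set read 331 to 455 in L-NAME-fed, 337 to 379 in Met-fed and 359 to 422 in control samples. The log2 change between L-NAME-fed and control hearts was 0.005, with a 95% interval of -0.19 to 0.20. The dimmer Icam2 probe set, at 20.0 to 36.8 in L-NAME-fed samples and 17.0 to 73.4 in controls, changed by -0.54 ± 0.39 log2 (SE, limma adjusted p = 0.283).

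Among surface proteins, Plvap forms the diaphragms of fenestrae and caveolae. Its signal was 23.2, 54.2, 34.9 and 37.1 in L-NAME-fed samples, 141, 73.0, 79.7 and 126 in Met-fed samples, and 205, 79.4, 111, 67.7 and 98.1 in controls. All 4 L-NAME-fed samples were below all 9 others. The log2 change was -1.54 ± 0.31 relative to control hearts (SE, limma adjusted p = 0.000572, exact permutation p = 0.00794).

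Emcn (endomucin), a sialomucin of capillary and venous endothelium, read 860, 998, 912 and 965 in L-NAME-fed samples, 977, 1222, 1311 and 1032 in Met-fed samples, and 1134, 966, 1142, 1038 and 1257 in controls. Of the 4 L-NAME-fed samples 3 were below every control, and the groups overlapped through replicate 2. Its log2 change relative to control hearts was -0.24 ± 0.10 with limma adjusted p = 0.0509, just outside the threshold, and it passed without control replicate 2 at -0.29 (limma adjusted p = 0.0242) and without Met-fed replicate 1 or 3 (0.0350 and 0.0376). Eng (endoglin), a co-receptor for TGF-beta family ligands, read 332, 391, 428 and 395 in L-NAME-fed samples, 443, 323, 279 and 396 in Met-fed samples, and 345, 290.4, 271, 368 and 411 in controls. The 3 groups overlapped, with a change of 0.21 ± 0.14 log2 between L-NAME-fed and control hearts (SE, limma adjusted p = 0.262, 95% interval -0.10 to 0.51).

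The secreted members were Vwf and Egfl7. Vwf, the clotting glycoprotein stored in endothelial granules and platelets, read 335, 440.5, 455 and 358 in L-NAME-fed samples, 712, 530.2, 733 and 738 in Met-fed samples, and 791, 789, 690.0, 825 and 910.2 in controls. No L-NAME-fed sample reached the lowest of the other 9. The log2 change relative to control hearts was -1.02 ± 0.12 (SE, limma adjusted p = 3.72e-06, exact permutation p = 0.00794).

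Vwf and Pecam1 are also made in the platelet lineage, and platelet markers were examined beside them. Of 5 measured platelet genes 0 were higher and 1 was lower in L-NAME-fed relative to control hearts, against 28.7% and 17.0% of all probe sets. The lower one was the chemokine Pf4 at -1.39 ± 0.29 log2 (SE, limma adjusted p = 0.00095). The other 4 did not pass and had positive changes, with Itga2b at 1.14 (limma adjusted p = 0.052), Gp5 at 1.18, Ppbp at 0.52 and Gp9 at 0.08, and the median of the list was 0.52. The part of platelets in the Vwf and Pecam1 results was not tested, and the summed signal of the list, in which Pf4 weighs most, was 348 to 1228 in L-NAME-fed and 1251 to 2572 in control samples.

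Egfl7, a matrix-associated factor secreted by endothelial cells, gave different answers by probe set. The brighter read 352 to 411 in L-NAME-fed, 387 to 467 in Met-fed and 320 to 473 in control samples, a log2 change of -0.11 ± 0.11 relative to controls (SE, limma adjusted p = 0.458). The dimmer read 72.6, 75.2, 78.4 and 79.9 in L-NAME-fed samples, 48.2, 20.3, 36.2 and 25.3 in Met-fed samples, and 19.1, 36.5, 40.1, 18.9 and 21.5 in controls, a 2.97-fold rise relative to controls (limma adjusted p = 0.000187, exact permutation p = 0.00794). The L-NAME-fed samples were above all others there. The 2 probe sets of this gene disagreed, and which transcripts each one reads was not examined.

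**Figure D2:**
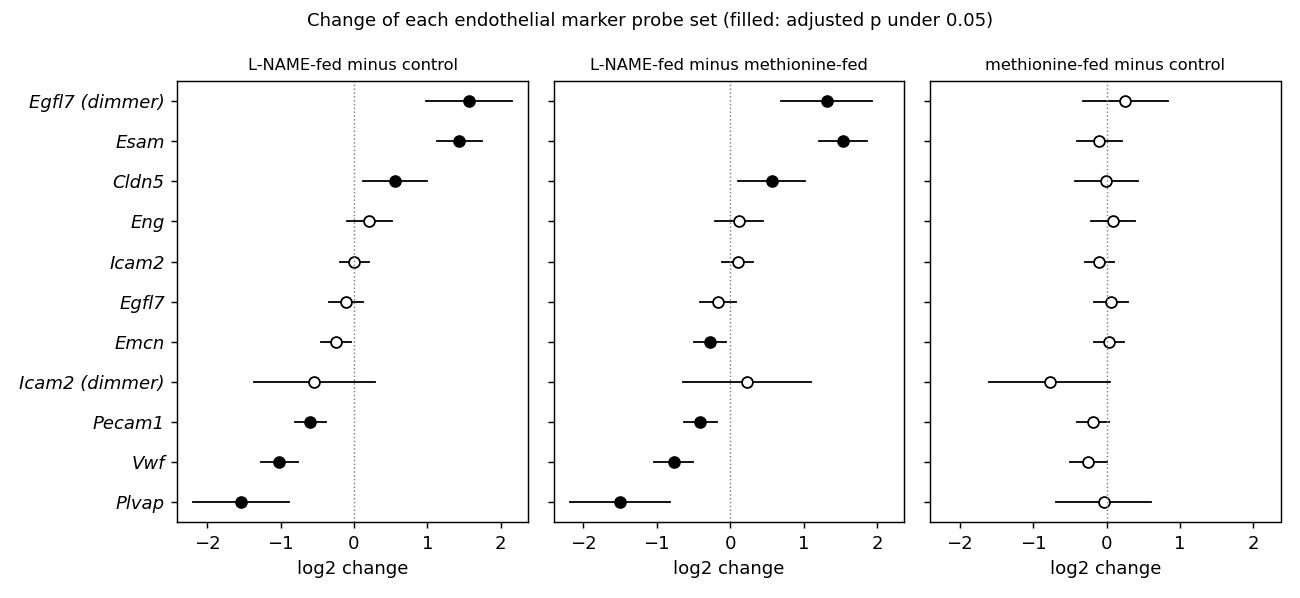
Log2 change with its 95% interval for each of the 11 marker probe sets, in L-NAME-fed relative to control, L-NAME-fed relative to Met-fed and Met-fed relative to control hearts. Plvap, Vwf and Pecam1 lie left of 0 and Esam and the dimmer Egfl7 probe set right of 0 in both comparisons with L-NAME-fed hearts, and all Met-fed intervals include 0.

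The comparison with Met-fed hearts used the same 4 L-NAME-fed arrays. Esam was higher in L-NAME-fed than in Met-fed hearts by 1.53 ± 0.15 log2, and Plvap, Vwf and Pecam1 were lower, with changes of -1.50 ± 0.32, -0.77 ± 0.13 and -0.41 ± 0.11 (SE, limma adjusted p = 1.43e-06, 0.00144, 0.000143 and 0.00593 in that order of genes). Of 11 probe sets 7 passed, 3 higher and 4 lower. Of all probe sets 40.3% passed, 25.4% higher and 14.9% lower, and 57.6% of those of at least median signal. The other 3 marker probe sets that passed were Emcn at -0.27 (limma adjusted p = 0.0417), Cldn5 at 0.56 (limma adjusted p = 0.0466) and the dimmer Egfl7 probe set at 1.31 (limma adjusted p = 0.00177). At an unadjusted p below 0.05 it was also 7, against 47.6%. Esam and the dimmer Egfl7 probe set were above all Met-fed samples (25.6% of all probe sets) and Plvap and Vwf below them (14.0%), 4 of 11 against 39.6% in all, each with an exact permutation p of 0.0286, the smallest that 4 against 4 can give. Emcn, Cldn5 and Pecam1 overlapped, and their calls were lost with quantile normalization (log2 changes of -0.12, 0.48 and -0.20). The Emcn call was also lost without Met-fed replicate 2 or 3 or L-NAME-fed replicate 1, 3 or 4 (limma adjusted p of 0.0578 to 0.142), and the Cldn5 call without control replicates 1 to 4, Met-fed replicates 2 to 4 or L-NAME-fed replicates 1 or 4, each left out alone (0.0527 to 0.150).

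No marker passed the test between Met-fed and control hearts. Of 11 probe sets 0 passed by limma, as did 0.0% of all probe sets, and 0 of the 11 were below an unadjusted p of 0.05, where 10.7% of all probe sets were. In 0 of the 11 did the 2 groups not overlap, against 2.89% of all probe sets, 1.34% higher and 1.55% lower. The methods' t-test also gave 0 markers, before and after adjustment. The median log2 change of the 9 genes was -0.04 in Met-fed relative to control hearts.

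The intervals set the size of change that remained possible in Met-fed hearts. Vwf was nearest to a change, at -0.25 ± 0.12 log2 (SE, limma p = 0.0555 before and 0.482 after adjustment, exact permutation p = 0.0556), with an interval of -0.50 to 0.01. Its lowest Met-fed sample was replicate 2, and without that array the change was -0.13. For Plvap the change was -0.04 with an interval of -0.69 to 0.61, which spans folds of 0.621 to 1.52. For Esam, Cldn5, Eng, Emcn, Icam2 and Egfl7 (brighter probe sets) the changes lay between -0.10 and 0.09. The dimmer Icam2 probe set had the largest change and the widest interval, -0.77 ± 0.39 log2 with an interval of -1.60 to 0.05 (SE, limma p = 0.0651 before and 0.50 after adjustment, exact permutation p = 0.159), at 14.5, 25.0, 44.7 and 16.1 in Met-fed samples against 73.4, 17.0, 33.7, 48.5 and 41.5 in controls.

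Pecam1 divided the Met-fed samples. Replicates 1 and 4 had log2 signals of 10.26 and 10.34, below all controls at 10.62 to 10.75, while replicates 2 and 3 at 10.68 and 10.79 were within or above the control range. The same 2 replicates had the highest median array signals of the group, 29.2 and 29.0, against 26.8 and 25.8, and the lowest spike-in means. The Pecam1 change of -0.19 ± 0.10 log2 in Met-fed relative to control hearts (SE, limma adjusted p = 0.533) was 0.03 without them. Over the 9 Met-fed and control arrays the Pecam1 log2 signal had r = -0.88 with the array median log2 signal (exact permutation p = 0.0108, adjusted 0.289 over 27 relations of 9 markers with 3 array measures; rho -0.42, exact p = 0.270, adjusted 0.729) and r = 0.71 with the spike-in mean (exact permutation p = 0.0321, adjusted 0.289; rho 0.27, exact p = 0.493, adjusted 0.887). Both rested on Met-fed replicates 1 and 4, the 2 arrays farthest in each measure, without which r was -0.10 and -0.63. Emcn had r = -0.72 with the array median (exact permutation p = 0.0266, adjusted 0.289), and -0.67 without those 2 arrays. Eng and Esam went the other way, at 0.62 and 0.53 (exact permutation test, adjusted p = 0.547 and 0.734). The remaining markers lay between -0.14 and 0.44.

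Markers that read 1 cell population would be high and low in the same samples if its share varied between them beyond the measurement noise. How far the endothelial share varied was not measured, so a low r cannot decide whether the markers read 1 population. The co-variation was examined over the 9 Met-fed and control arrays, since the L-NAME-fed arrays lay apart. Of 36 pairs of the 9 genes, 24 had a positive and 12 a negative Pearson r, with a median of 0.16 and a range of -0.74 to 0.82. Over all pairs of the 9393 genes of at least median signal on the same arrays, the median r was 0.002 and 50.2% were positive. Pairs with r of at least 0.5 in either direction made up 22.2% of the marker pairs and 23.0% of all pairs. No pair passed after adjustment over the 36 (smallest adjusted p = 0.112, exact permutation test, two-sided), and 2 had an unadjusted p below 0.05.

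**Figure D3:**
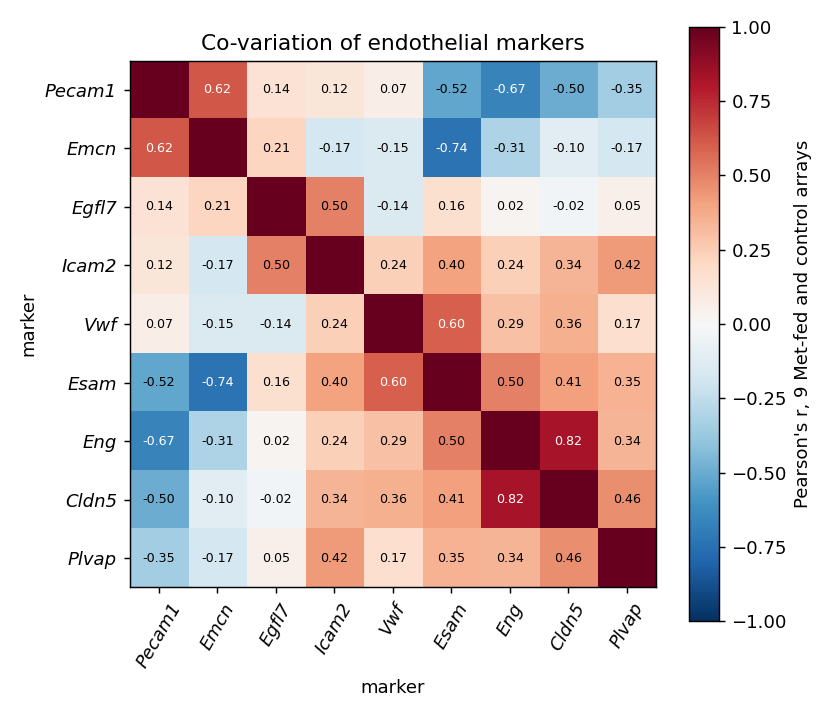
Pearson's r between the log2 signals of the 9 endothelial markers over 9 Met-fed and control arrays. Eng and Cldn5 form the highest pair at 0.82, and Pecam1 and Emcn, which correlate at 0.62 with each other, are negative with Esam.

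Eng and Cldn5 were the closest pair. Their r was 0.82 (exact permutation p = 0.00312, adjusted 0.112) and Spearman's rho was 0.90 (exact p = 0.00203, adjusted 0.0731), and r was 0.68 without the 2 samples farthest from the median Cldn5 level. Met-fed replicate 1 and control replicate 5 held the highest values of both genes among these 9 arrays. Over all 13 arrays, with each group centred on its own mean, r was 0.09. Control replicate 3 had the lowest Eng value of these arrays, and Met-fed replicate 3 the lowest Cldn5.

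Esam and Emcn ran in opposite directions. Their r was -0.74 (exact permutation p = 0.0276, adjusted 0.497), with rho of -0.82 (exact p = 0.0108, adjusted 0.194), and r was -0.88 without the 2 samples farthest in Esam. Pecam1 and Emcn had r = 0.62 (exact permutation p = 0.0778, adjusted 0.563; rho 0.63, exact p = 0.076, adjusted 0.864), and 0.47 without Met-fed replicates 1 and 4, the samples farthest in Pecam1. Leaving those 2 replicates out turned the sign of 8 of the 36 pairs. Pecam1 and Emcn also had negative r with the array median signal, and Esam positive. The part of that measure in these pairs was not tested.

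**Figure D4:**
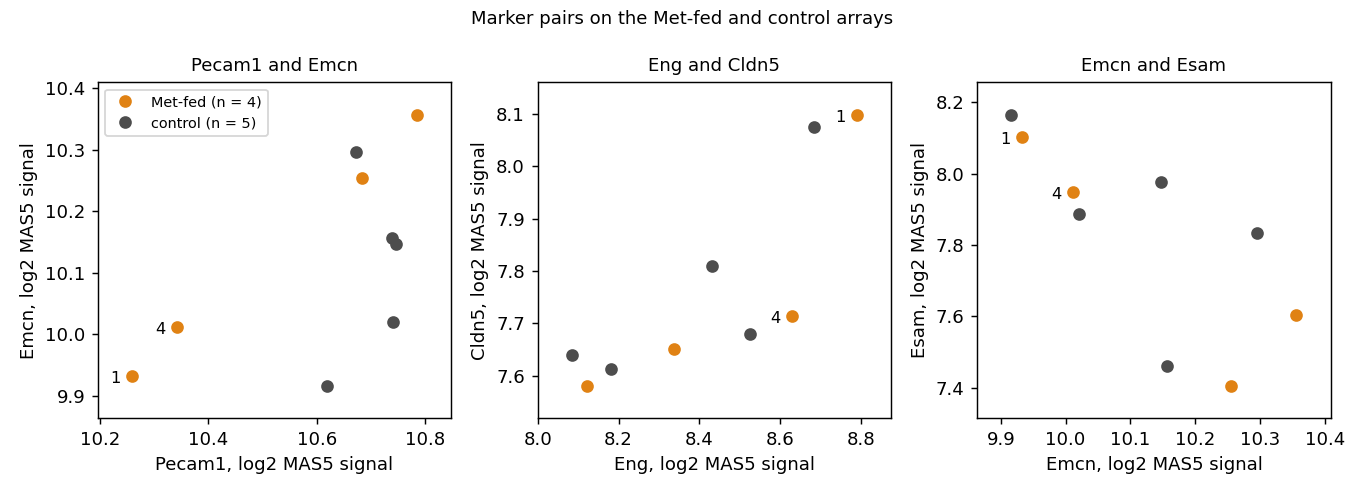
Log2 signal of 1 marker against another for selected pairs, each point an array of the Met-fed (n = 4) or control (n = 5) group, with Met-fed replicates 1 and 4 numbered. Eng and Cldn5 are highest together in Met-fed replicate 1 and control replicate 5 among the 9 arrays tested, and Met-fed replicates 1 and 4 lie low in Pecam1.

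No marker stood for the group as a whole. Each gene's log2 signal was standardized over the 9 arrays and the 9 were averaged. Icam2 followed this mean most closely (r = 0.75), then Cldn5 (0.67), Vwf (0.59), Plvap (0.55), Eng (0.54), Esam (0.53) and Egfl7 (0.47), while Emcn (0.05) and Pecam1 (-0.02) did not follow it, although each is part of it. The genes outside the list whose signal was most like the mean were Slc6a6 (0.91), Slfn2 (0.91), Pnp (0.90), Apbb1ip (0.87), Armcx4 (0.87), Adam15 (0.87), Smim29 (0.86) and Agap1 (0.85), of 9384 candidate genes whose median r was 0.01. The top of a ranking of 9384 genes over 9 arrays can hold high values among unrelated genes. These r were not tested, and they do not mark the named genes as endothelial. The mean was highest in control replicates 1 and 5 and lowest in control replicate 3, so the 5 controls spanned the range of all 9 arrays.

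Other endothelial genes were also called in both directions in L-NAME-fed relative to control hearts, where 28.7% of all probe sets were higher and 17.0% lower. Of 10 measured vascular receptors 3 were higher and 3 lower, with a median of -0.12: Calcrl, the adrenomedullin receptor, at 1.36 and Aplnr, the apelin receptor, at 1.49 log2, against Ptprb, a phosphatase of the VE-cadherin complex, at -0.83 and Kdr, the main VEGF receptor, at -0.45. Of 15 transcription factors (median 0.57) 7 were higher, with Erg at 1.45, Sox7 at 0.85 and Ets2 at 0.57, and 4 lower, with Tal1 at -1.39. Of 18 other surface and junction genes (median 0.10) 5 were higher and 7 lower, with F11r (JAM-A) at 2.25 and Gimap4 at 1.25 against Ecscr at -3.40 and Rasip1 at -1.66.

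Vessel-bed markers were called in both directions too. Of 10 capillary genes (median -0.32) 1 was higher, the water channel Aqp1 at 0.89 log2, and 4 were lower, including Rgcc at -0.83, Timp4 at -0.79 and lipoprotein lipase Lpl at -0.54, a gene that cardiomyocytes also express. With quantile normalization 4 capillary genes were higher and 2 lower. Of 12 arterial, venous and lymphatic genes (median 0.16) 5 were higher and 2 lower, with Npr3 at 1.76 and Ephb4 at 1.23 against the gap junction gene Gja4 at -1.13 and the lymphatic receptor Lyve1 at -0.81. With array median centring 3 of these 12 were higher and 4 lower. Of the 6 endothelial lists only the activation genes (median 0.98) had all their calls in 1 direction, with 4 of 6 higher: Sele at 2.00, Ccl2 at 1.28, Icam1 at 1.09 and Vcam1 at 0.86. With the spike-in covariate 0 of these 6 passed, where 7.64% of all probe sets were higher, and the list median was 0.55. The largest limma adjusted p among the genes named so far for these lists was 0.00139, in L-NAME-fed relative to control hearts. In Met-fed relative to control hearts 0 genes passed in each of these 6 lists, as 0 of all probe sets did. The activation list had a median of 0.58 there, with 5 of 6 genes positive. That median was 0.55 with quantile normalization, 0.52 with array median centring and 0.2 with the spike-in covariate. The summed signal of the list was 1187 to 1552 in L-NAME-fed, 935 to 1246 in Met-fed and 488 to 840 in control samples. Probe sets with large signals weigh most in this sum. The mean log2 signal of the same 6 genes did overlap between Met-fed and control samples. Its lowest Met-fed value was 6.14 and its highest control value was 6.34.

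**Figure D5:**
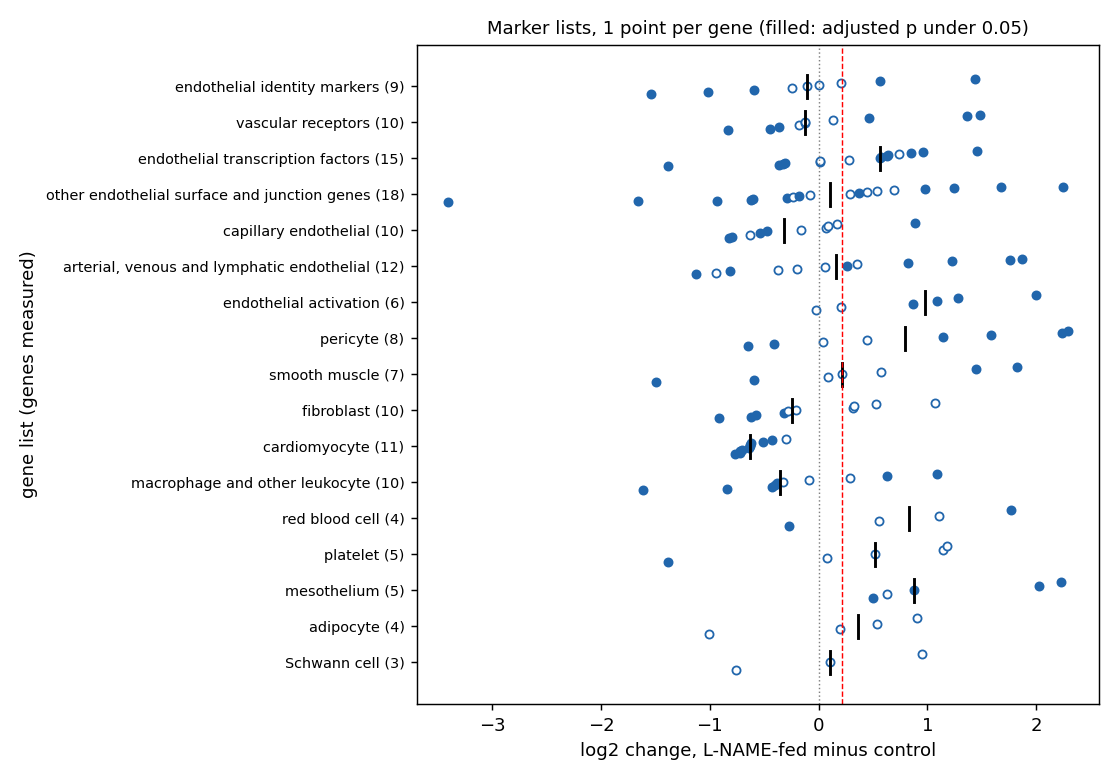
Log2 change of each measured gene in the marker lists of endothelial and other cell types, L-NAME-fed relative to control; filled points passed the test, black bars are list medians, the dotted line is 0 and the dashed line the median of all probe sets. The cardiomyocyte list lies below 0 throughout, and the endothelial lists spread to both sides.

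The markers of other heart cells give the setting of these changes. In L-NAME-fed relative to control hearts 28.7% of all probe sets were higher and 17.0% lower. Of 11 measured cardiomyocyte genes 10 were lower and 0 higher in this comparison, with a median of -0.63 log2. With quantile normalization 6 were lower (21.9% of all probe sets), and with the spike-in covariate 0 were (5.67%). The summed signal of these cardiomyocyte genes was 23371 to 26895 in L-NAME-fed, 29496 to 41280 in Met-fed and 36276 to 40126 in control samples. The summed signal of the 9 endothelial markers was 4406 to 4736 in L-NAME-fed, 4797 to 5316 in Met-fed and 4976 to 5606 in control samples, with no overlap between L-NAME-fed samples and the rest. Probe sets with large signals weigh most in such sums. The mean log2 signal of the same 9 endothelial markers did overlap. It was 8.47 to 8.64 in L-NAME-fed, 8.56 to 8.77 in Met-fed and 8.57 to 8.89 in control samples. Of 8 pericyte genes 4 were higher and 2 lower (median 0.79), of 7 smooth muscle genes 2 and 2 (median 0.21), of 10 fibroblast genes 0 and 4 (median -0.24), of 10 leukocyte genes 2 and 5 (median -0.36), and of 5 mesothelial genes 4 and 0 (median 0.87). Of 4 red cell genes 1 was higher and 1 lower, and of 4 adipocyte and 3 Schwann cell genes 0 passed. With array median centring 4 pericyte genes were higher and 3 lower, and 1 mesothelial gene was higher and 0 lower. With the spike-in covariate 0 mesothelial genes passed, and 3 pericyte genes were higher and 0 lower, against 7.64% and 5.67% of all probe sets. The part of these cells in the endothelial values was not tested.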

How the data were processed

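Left ventricular RNA of 13 samples was hybridized to Affymetrix rat genome arrays by the authors, who deposited MAS5 values, linear signal intensities scaled per array. The deposited intensity values were used as log2 with no offset. The count of genes per probe set came from the platform annotation, in which 20826 probe sets had 1 symbol, 436 several and 9780 none, and 57 control probe sets were left out of tests. The members and all gene lists were chosen with earlier results of these data known. Groups followed the sample labels, and the study's methods name 1 control array fewer than the 5 used. The comparisons were made in R 4.3.3 by limma 3.58.1 (lmFit and eBayes with trend, 1 coefficient a group over 13 arrays, Benjamini-Hochberg over 31042 probe sets), tested on simulated data. Single markers were compared with exact two-sided permutation tests, and pairs of markers with exact permutation of pairings. Array number limits the precision. All members were named, with the brightest probe set (highest mean log2 signal) first. Of each list up to 4 genes with the smallest p of those passing in the L-NAME-fed against control comparison were named, and the 8 genes most correlated with the markers' mean. Flt1 and Tie1 were named for their Met-fed values, after seeing the data. The alternatives were a filter on signals below the median, offsets of 16 and 50, centring of arrays on their median, quantile normalization, fits of only the 2 groups compared, variance without trend, a t-test, a replicate block and each array left out. The spike-in covariate, leaving out Met-fed replicates 1 and 4, and correlations over all probe sets were chosen after seeing the data. Figures were drawn with matplotlib 3.10.9.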

Additional observations from a re-analysis of the deposited data

Results flagged for a closer look

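Vwf in Met-fed replicate 2 stood apart from its group, with a log2 signal of 9.05 against 9.48 to 9.53 in the other 3 Met-fed samples. The gap to the nearest sample was 0.892 of the group's range, above the limit for 4 samples, and this was 1 of 33 groups of marker values examined, where chance gives about 1 in 20.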

How the results depend on the processing

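Esam, Vwf and Plvap kept their direction and passed the test in L-NAME-fed against control and against Met-fed hearts under all alternatives run. In L-NAME-fed against control hearts 6 of 11 marker probe sets passed (45.7% of all probe sets), 8 with array median centring (45.7%) and 3 with the spike-in mean as a covariate (13.3%), which was chosen after seeing the data. Against Met-fed hearts 7 passed (40.3%), 4 with quantile normalization (36.7%), 4 with the plain t-test (35.7%) and 3 with the spike-in covariate (24.2%). Leaving out 1 array at a time gave 5 to 7 in both comparisons and 0 in Met-fed against control hearts.

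The median log2 change of the markers in L-NAME-fed against control hearts was -0.53 with array median centring, 0.06 with the spike-in covariate and -0.24 with all probe sets of a gene averaged. Against Met-fed hearts it was -0.54, 0.06 and 0.12 under the same alternatives. In Met-fed against control hearts it was -0.15 without Met-fed replicates 1 and 4. Centring on the median moved all probe sets, whose median change in L-NAME-fed against control hearts was -0.21 with it, -0.01 with quantile normalization and 0.22 without either. The higher share of the calls over all probe sets was 34.9% with centring and 50.1% with quantile normalization, against 62.8%, and in L-NAME-fed against Met-fed hearts 34.4%, 49.5% and 63.1%. The cause of these differences was not tested.

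Signs turned mostly for markers near 0. In L-NAME-fed against control hearts they turned for Icam2 (-0.06 with quantile normalization, -0.42 with centring, -0.07 to 0.08 with arrays left out), Eng (-0.22 with centring), and with the spike-in covariate for Cldn5 (-0.04), Emcn (0.06) and Egfl7 (0.30). Against Met-fed hearts they turned for Icam2 (-0.26) and Eng (-0.25) with centring and Egfl7 (0.06) with the spike-in covariate. In Met-fed against control hearts they turned for Pecam1 (0.03) and Eng (-0.15) without Met-fed replicates 1 and 4 and Emcn (-0.03) with centring. With arrays left out they turned for Esam (-0.21 to 0.02), Cldn5 (-0.11 to 0.08), Eng (-0.02 to 0.20), Emcn (-0.04 to 0.10), Plvap (-0.20 to 0.21) and Egfl7 (-0.02 to 0.12).

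The labels do not say that the replicate numbers pair the samples. Same-numbered samples had correlations of -0.21 to 0.24 in their deviations from the group means. Samples with different numbers had -0.29 to 0.28, and so few samples a group cannot settle whether pairing exists. With the replicate number as a block 6, 0 and 7 marker probe sets passed in L-NAME-fed against control, Met-fed against control and L-NAME-fed against Met-fed hearts, and Cldn5 in Met-fed against control hearts was 0.08. The median pairwise r of 0.16 ranged from 0.05 to 0.24 over all alternatives. The 2 probe sets of Icam2 and of Egfl7 gave different values, and the cause was not tested.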
